A study of Mus musculus with 19 samples.

Results

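1700001O22Rik, Dkk3, Ppm1n and Htra4 were among the transcripts that were lowest in quadriceps of AR113Q mice relative to wild-type mice, and they were followed here across both genotypes and both diets. They were selected on the genotype difference under the normal diet, as 4 of the 5 probes with the largest falls. The array's gene name field held 30214 different names, and 24741 of them passed the signal filter. Some of these names are probe identifiers and not genes. All 4 passed that filter. In spinal and bulbar muscular atrophy (SBMA), an inherited disease, motor neurons and muscle degenerate. AR113Q mice are a knock-in model of it, in which the altered gene is expressed from its own locus and not from a muscle-specific promoter. Male congenic C57Bl6J wild-type (CTR) and AR113Q mice received purified chow, called normal chow diet (NCD), or high-fat food (HFD) from 40 days of age, and quadriceps was taken at 180 days of age. There were 5 arrays for CTR-NCD, 5 for AR113Q-NCD, 4 for CTR-HFD and 5 for AR113Q-HFD. The labels do not say whether each sample was a single mouse, so n counts arrays and p-values measure the spread between these samples.

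Dkk3 encodes a secreted glycoprotein of the Dickkopf family, whose founding members block canonical Wnt signaling by binding the co-receptors Lrp5 and Lrp6 together with Kremen proteins. Wnt signals steer myogenic differentiation and the upkeep of the neuromuscular junction. Ppm1n belongs to the metal-dependent PPM family of serine/threonine phosphatases, and Htra4 to the HtrA family of serine proteases. 1700001O22Rik is known by its RIKEN cDNA clone name, and no role is given for it here.

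Each gene was read by 1 probe of 60 bases in 1 spot per array, and no other probe on the array cited the same RefSeq transcript. The letters below are the first 30 bases of each probe, 5′ to 3′, shown because a single stretch of transcript carries every value that follows. They are the only readings of these genes, so no second probe was there to compare them with.
1700001O22Rik: ctttgccagctgtatctgtgtcagaacggg
Dkk3: gcctgtaaatcgcatctgaagataccacag
Ppm1n: ttttttaacctatgctacaaggaggtggtg
Htra4: gtttctgacagtcacacctgaaataatcaa
By the array's mm9 coordinates, all on the minus strand, these bases lie at chr2:30652024-30652053 for 1700001O22Rik (NM_198000), chr7:119259586-119259615 for Dkk3 (NM_015814), chr7:19862202-19862231 for Ppm1n (NM_177691) and chr8:26136045-26136074 for Htra4 (NM_001081187). An annotation of that build was not used here, so the exon or untranslated region they fall in is not given.

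Signal is given as log2 of the scanner's processed intensity minus the 75th percentile of the same array, so that 0 is the level of that percentile. Values compare groups for 1 probe and not probes with each other. The 19 arrays lay on 5 slides that each held several groups and were scanned on the same day. Between 67.1% and 80.1% of probes were well above background on each array. Skeletal muscle as the tissue, though not which muscle, was borne out by 8 skeletal muscle markers, whose mean log2 signal ranged from 7.92 to 8.56. That mean was lower on each AR113Q array than on every CTR array, and Actn3 and Pvalb, a sarcomeric protein and a calcium buffer of fast fibers, were called lower on both diets, Pvalb on the dimmer of its 2 probes only, while the brighter gave -0.40 on the NCD and -0.49 on the HFD. No tested marker of satellite cells, fibroblasts, endothelium, adipocytes, macrophages, Schwann cells or red blood cells was called on either diet. The Schwann cell marker S100b, at 0.58 on the NCD (limma adjusted p = 0.00521), fell short only of the fold threshold. So did 1 probe of the endothelial Kdr, at -0.68 on the HFD (limma adjusted p = 0.0275). Satellite cells were read by Pax7 alone, as Myf5 was not tested. In bulk muscle, fewer cells of a type and less RNA per cell cannot be told apart.

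On the NCD, the comparison that selected them, all 4 transcripts were far lower in AR113Q than in CTR muscle. 1700001O22Rik differed by a log2 value of -4.23 (18.7-fold lower), Dkk3 by -4.21 (18.5-fold), Ppm1n by -3.87 (14.6-fold) and Htra4 by -3.51 (11.4-fold). With normexp background correction the same differences were -3.28, -3.73, -1.98 and -2.60, so the size of the falls changed with that setting. The Ppm1n fold is against a group in which 2 of 5 spots were not well above background. Of 32026 probes tested, 651 were called lower, or 2.03%, where a call needed a limma adjusted p under 0.05 together with at most 0.6 times the CTR signal. Because this comparison chose the genes, it is given as a description and without p-values. Smox, the gene of spermine oxidase, stood between Ppm1n and Htra4 at -3.66, and its second probe came just after Htra4 at -3.46. The next genes outside were Themis3 at -3.40 and Mss51 at -3.32. The order was not fixed. In the authors' own table, which differs in probes, scaling and values, the places were 2 for 1700001O22Rik, 1 for Dkk3, 6 for Ppm1n and 4 for Htra4, whereas with normexp background correction they were 3, 1, 22 and 9. Dkk3 and 1700001O22Rik were thus in the first 3 places each way, and Ppm1n was not.

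The HFD groups share no array with that comparison, so the means compared on the HFD are those of other samples. The SE and adjusted p came from the fit of all 4 groups and pool the spread of the NCD arrays. With only the 2 HFD groups fitted, all 4 genes were still called, at limma adjusted p = 0.00123 for 1700001O22Rik, 0.0108 for Dkk3, 0.0321 for Ppm1n and 0.0136 for Htra4. All 4 transcripts were lower in AR113Q-HFD than in CTR-HFD muscle and passed the test, against 591 of 32026 probes called lower, or 1.85%. For each of them every AR113Q array lay below every CTR array, which held for 8.3% of all probes. By size of fall, Dkk3 was at place 1, Ppm1n at 4, 1700001O22Rik at 10 and Htra4 at 11 among the probes tested. Each difference had an exact permutation p of 0.0159 (two-sided), the smallest that 5 against 4 arrays allow with 126 splits.

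**Figure D1:**
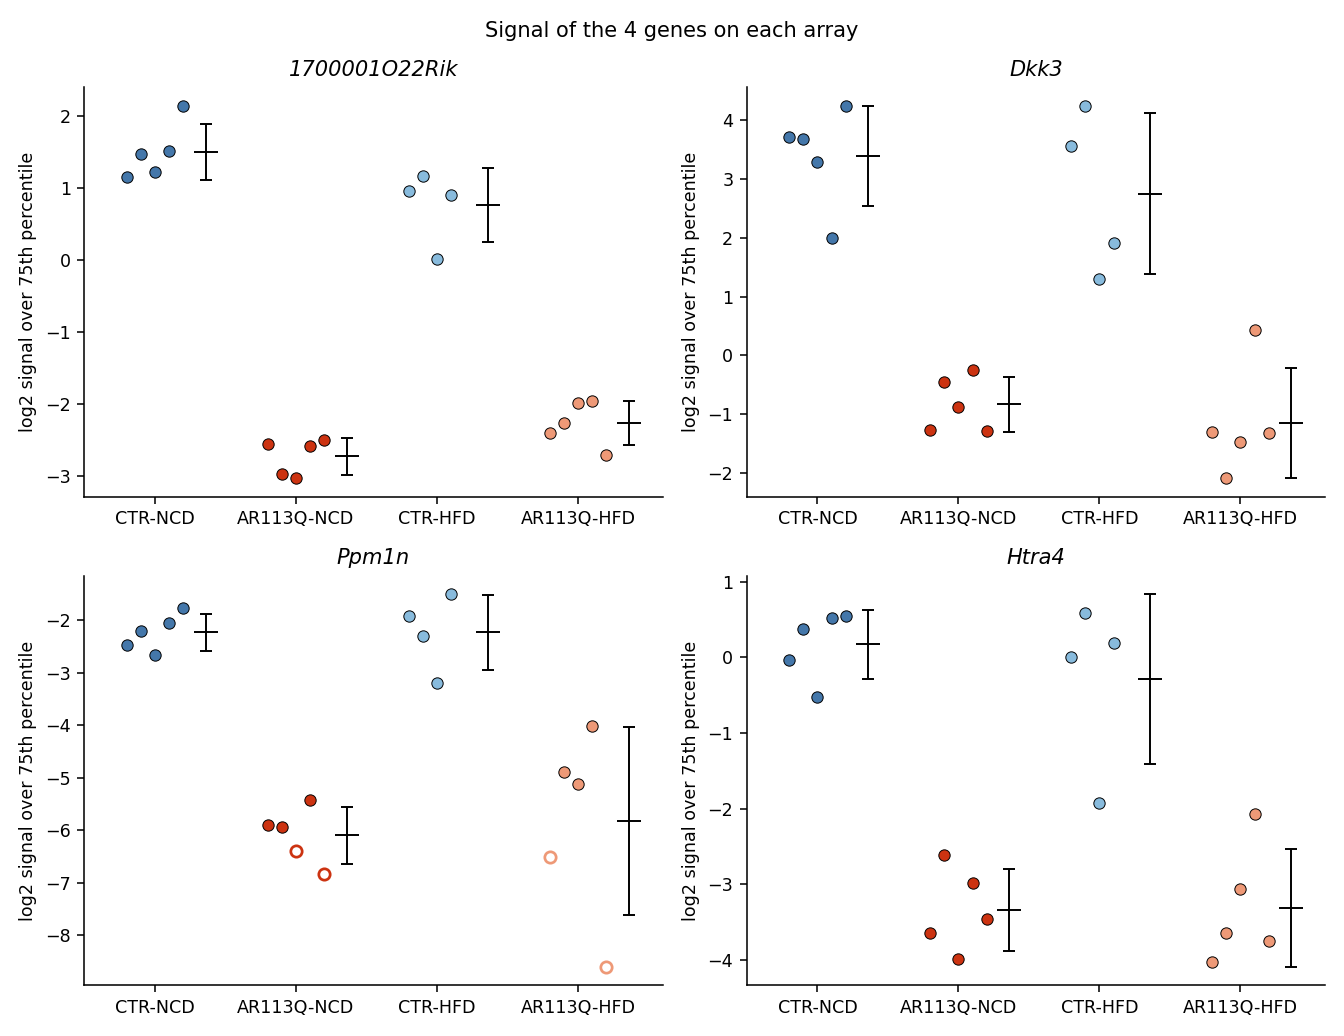
Log2 signal over the array's 75th percentile (vertical axis) of each gene on the 19 arrays, by group; points are arrays in replicate order, open points are spots not well above background, and the bar beside each group is mean ± SD. In every panel the AR113Q arrays lie below the CTR arrays of the same diet, with the narrowest gap, 0.14, for Htra4 on the HFD.

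Dkk3, the secreted Dickkopf protein, had log2 signals of 3.71, 3.68, 3.29, 1.99 and 4.24 in CTR-NCD and of -1.27, -0.46, -0.88, -0.25 and -1.28 in AR113Q-NCD (replicates 1 to 5). In CTR-HFD the values were 3.56, 4.23, 1.31 and 1.91, and in AR113Q-HFD they were -1.30, -2.08, -1.47, 0.43 and -1.32. The AR113Q arrays of both diets stayed below all CTR arrays, although CTR arrays themselves spread over several log2 units. Before scaling, the processed intensity ran from 1829 to 13670 in CTR-HFD and from 227 to 1269 in AR113Q-HFD, all well above background. The difference on the HFD was -3.90 on the log2 scale (SE 0.59, 95% confidence interval -5.15 to -2.65, limma adjusted p = 0.000208), a 14.9-fold lower signal. The 0.88 between the closest AR113Q and CTR arrays was smaller than the SD of either HFD group, 0.94 in AR113Q and 1.37 in CTR. In order of mean, CTR-NCD (3.38 ± 0.85, SD, n = 5) came first, then CTR-HFD (2.75 ± 1.37, n = 4), AR113Q-NCD (-0.83 ± 0.47, n = 5) and AR113Q-HFD (-1.15 ± 0.94, n = 5). Groups of the same genotype overlapped, and groups of different genotype did not.

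Ppm1n, the PPM phosphatase gene, came close to background in AR113Q muscle. Its log2 signals were -2.47, -2.21, -2.65, -2.05 and -1.78 in CTR-NCD and -5.91, -5.93, -6.39, -5.42 and -6.84 in AR113Q-NCD. On the HFD they were -1.92, -2.30, -3.19 and -1.51 in CTR and -6.50, -4.90, -5.13, -4.02 and -8.60 in AR113Q. The spot was well above background on all 9 CTR arrays but only on 3 of 5 AR113Q arrays of each diet, so the low end of its range is poorly measured. The exceptions were replicates 3 and 5 of AR113Q-NCD and replicates 1 and 5 of AR113Q-HFD, the last with a processed intensity of 2.4. The difference on the HFD was -3.60 (SE 0.66, 95% confidence interval -4.99 to -2.21, limma adjusted p = 0.000979), or 12.1-fold lower. Without AR113Q-HFD replicate 5 it was -2.91. With normexp background correction, which adds an offset, it was -1.34 and no longer passed (limma adjusted p = 0.228), and Ppm1n moved to place 66. A fall of Ppm1n was therefore called with the processed signal, and its size was not fixed by these arrays. CTR-NCD (-2.23 ± 0.35, n = 5) and CTR-HFD (-2.23 ± 0.72, n = 4) had the same mean to the second decimal, above AR113Q-HFD (-5.83 ± 1.79, n = 5) and AR113Q-NCD (-6.10 ± 0.54, n = 5).

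Htra4, the HtrA protease gene, had log2 signals of -0.04, 0.37, -0.52, 0.52 and 0.54 in CTR-NCD and -3.65, -2.61, -3.99, -2.98 and -3.45 in AR113Q-NCD. In CTR-HFD they were 0.00, 0.59, -1.92 and 0.18, and in AR113Q-HFD -4.03, -3.65, -3.06, -2.06 and -3.74. The spot was well above background on all 19 arrays, and the HFD groups came within 0.14 of each other, at CTR-HFD replicate 3 and AR113Q-HFD replicate 4. The difference on the HFD was -3.02 (SE 0.47, 95% confidence interval -4.02 to -2.02, limma adjusted p = 0.000263), an 8.11-fold lower signal. With normexp background correction it was -2.23, still called. Without CTR-HFD replicate 3 it was -3.57. Means ran from CTR-NCD (0.17 ± 0.45, n = 5) and CTR-HFD (-0.29 ± 1.12, n = 4) to AR113Q-HFD (-3.31 ± 0.78, n = 5) and AR113Q-NCD (-3.34 ± 0.55, n = 5), with overlap within each genotype.

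1700001O22Rik varied little within groups, with SDs between 0.25 and 0.51. Its log2 signals were 1.14, 1.46, 1.22, 1.51 and 2.14 in CTR-NCD and -2.56, -2.98, -3.03, -2.59 and -2.51 in AR113Q-NCD. They were 0.95, 1.16, 0.00 and 0.90 in CTR-HFD and -2.41, -2.28, -1.99, -1.96 and -2.71 in AR113Q-HFD. The groups of different genotype were separated by at least 1.97 on the HFD, well beyond the SDs of 0.31 in AR113Q-HFD and 0.51 in CTR-HFD. The difference on the HFD was -3.02 (SE 0.24, 95% confidence interval -3.53 to -2.52, limma adjusted p = 9.42e-07), an 8.13-fold lower signal. The means were 1.49 ± 0.39 (n = 5) in CTR-NCD, 0.75 ± 0.51 (n = 4) in CTR-HFD, -2.27 ± 0.31 (n = 5) in AR113Q-HFD and -2.73 ± 0.25 (n = 5) in AR113Q-NCD. Both HFD means lay between both NCD means.

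**Figure D2:**
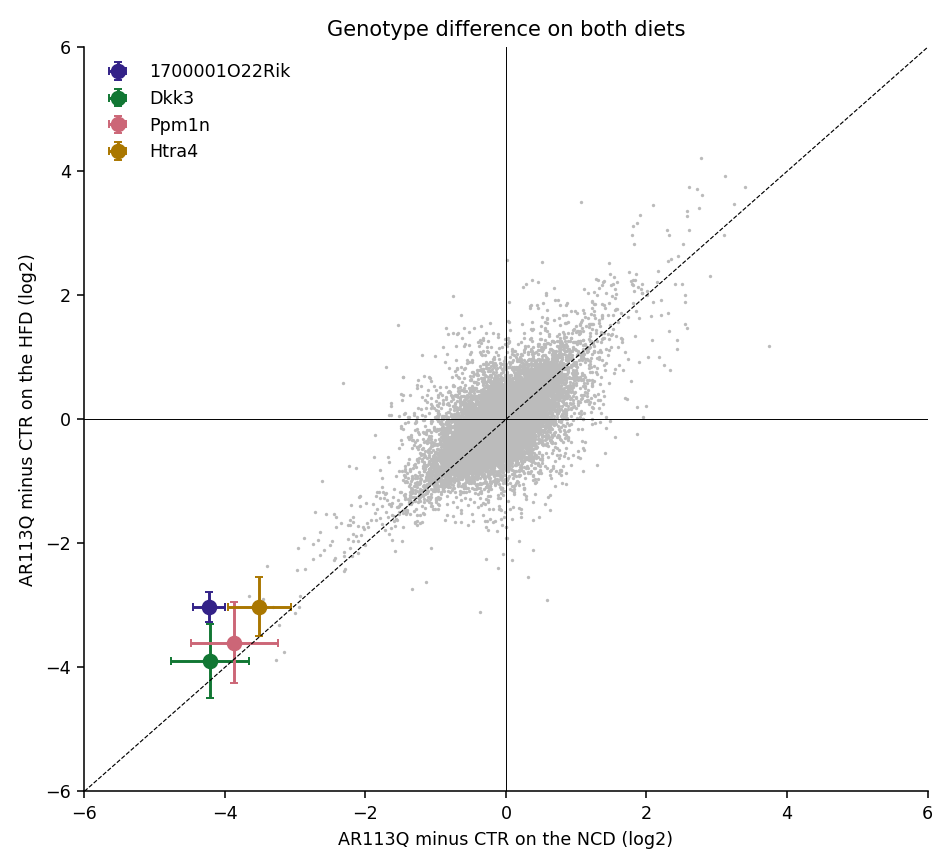
Genotype difference (AR113Q minus CTR, log2) on the NCD (horizontal axis) and on the HFD (vertical axis) for the 32026 probes tested (grey), with the 4 genes in color and bars of 1 SE; the dashed line marks equal differences. The genes were selected on the horizontal axis; on the vertical axis they lie between -3.90 for Dkk3 and -3.02 for 1700001O22Rik and Htra4.

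Differences were also read within slides, since 4 of them held both an AR113Q-HFD and a CTR-HFD array. Within each of these slides all 4 genes were lower on the AR113Q array. That sign was already fixed, because every AR113Q-HFD array lay below every CTR-HFD array, so only the sizes add to it. The within-slide difference ranged from -3.61 to -2.00 for 1700001O22Rik, from -6.31 to -2.78 for Dkk3, from -4.23 to -1.14 for Htra4 and from -7.09 to -1.94 for Ppm1n. The smallest difference of every gene was on slide 3, the slide of CTR-HFD replicate 3. With slide as a block the differences were -3.06, -3.96, -3.18 and -3.82 in the same order, and all passed. On the NCD, each gene was lower on the AR113Q array on 5 of 5 slides, which was also fixed, since those groups did not overlap either.

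Between diets the differences were smaller than between genotypes, and none was called by limma. These comparisons use the NCD arrays on which the genes were selected and are not independent of that choice. Within AR113Q, 0 of the 4 genes were called between HFD and NCD, with 8 of 32026 probes called in either direction, or 0.025%. The HFD minus NCD difference in AR113Q was 0.46 for 1700001O22Rik (95% confidence interval -0.01 to 0.94), -0.32 for Dkk3 (-1.50 to 0.86), 0.27 for Ppm1n (-1.04 to 1.58) and 0.03 for Htra4 (-0.91 to 0.97). These intervals include 0, and the limma adjusted p was 0.746 for 1700001O22Rik and at least 0.99 for the others. Within CTR, 0 of the 4 genes and 0 of all probes (0%) were called, while 1496 probes were higher and 1279 lower on the HFD at an unadjusted p under 0.05. The difference in CTR was -0.74 for 1700001O22Rik (-1.24 to -0.24), -0.63 for Dkk3 (-1.88 to 0.62), 0.00 for Ppm1n (-1.39 to 1.39) and -0.46 for Htra4 (-1.46 to 0.54). For 1700001O22Rik the unadjusted limma p was 0.00647, the adjusted p was 0.411, and the arrays of both CTR groups overlapped by 0.02. For Dkk3, Ppm1n and Htra4 the intervals leave room for changes of more than 1 log2 unit in CTR muscle.

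The genotype difference was compared between diets by the interaction, HFD minus NCD. It was 1.20 for 1700001O22Rik (SE 0.33, 95% confidence interval 0.51 to 1.89), so its fall was smaller on the HFD in these samples, with an unadjusted limma p of 0.00189 and an adjusted p of 0.914. It was 0.31 for Dkk3 (-1.40 to 2.03), 0.27 for Ppm1n (-1.64 to 2.18) and 0.49 for Htra4 (-0.88 to 1.86). None of the 4 genes passed the test, and neither did any other probe, with 0 of 32026 called (0%), 656 positive and 833 negative at an unadjusted p under 0.05. Since the NCD part of this contrast selected the genes for large falls, the choice itself favors a smaller fall on the other diet. The signs for Dkk3, Ppm1n and Htra4 were not stable. Without CTR-HFD replicate 3 they became -0.17, -0.05 and -0.06.

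Single arrays stood out in the same direction for the whole group of genes. CTR-HFD replicate 3 was the lowest CTR-HFD array for 4 of 4 genes, and AR113Q-HFD replicate 4 was the highest AR113Q-HFD array for 4 of 4. Over all probes tested, CTR-HFD replicate 3 was the lowest of its group for 31.7%, and among the 591 probes called lower on the HFD for 60.6%. AR113Q-HFD replicate 4 was the highest of its group for 18.1% of all probes and for 37.6% of the 591. No value was far enough from its group to exceed Dixon's limit in any of 16 combinations of gene and group. Both arrays lay toward the other genotype, and the falls on the HFD were larger without either of them, for example -4.38 and -4.29 for Dkk3.

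Slow-fiber transcripts also varied between these arrays. The mean log2 signal of 6 slow-fiber genes (Myh7, Myl2, Myl3, Tnni1, Tnnt1 and Tnnc1, components of the slow contractile apparatus) was 1.42, -0.40, 5.22 and -1.64 in CTR-HFD, highest in replicate 3. In AR113Q-HFD it was 4.02, 0.11, -0.18, 3.79 and 4.55. It was 2.82, 5.03, 3.81, 0.36 and 2.17 in CTR-NCD and between 4.84 and 5.98 in AR113Q-NCD. The CTR-HFD array that was low for the 4 genes had the highest slow-fiber signal of its group. CTR-NCD replicate 2, the highest of its group at 5.03, was lowest of its group for 0 of the 4 genes. Replicate 3 of that group, second highest at 3.81, was lowest for 2 of the 4. Replicates 1 and 4, at 2.82 and 0.36, were lowest for 1 each. AR113Q-HFD replicates 2 and 3, at 0.11 and -0.18, lay below every CTR-HFD array for all 4 genes. That was already fixed, because every AR113Q-HFD array did, so it says nothing about slow-fiber transcripts. None of the 6 slow-fiber genes was called on either diet, with median differences of 2.38 on the NCD and 1.28 on the HFD. Their part in the falls of the 4 genes was not tested.

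**Figure D3:**
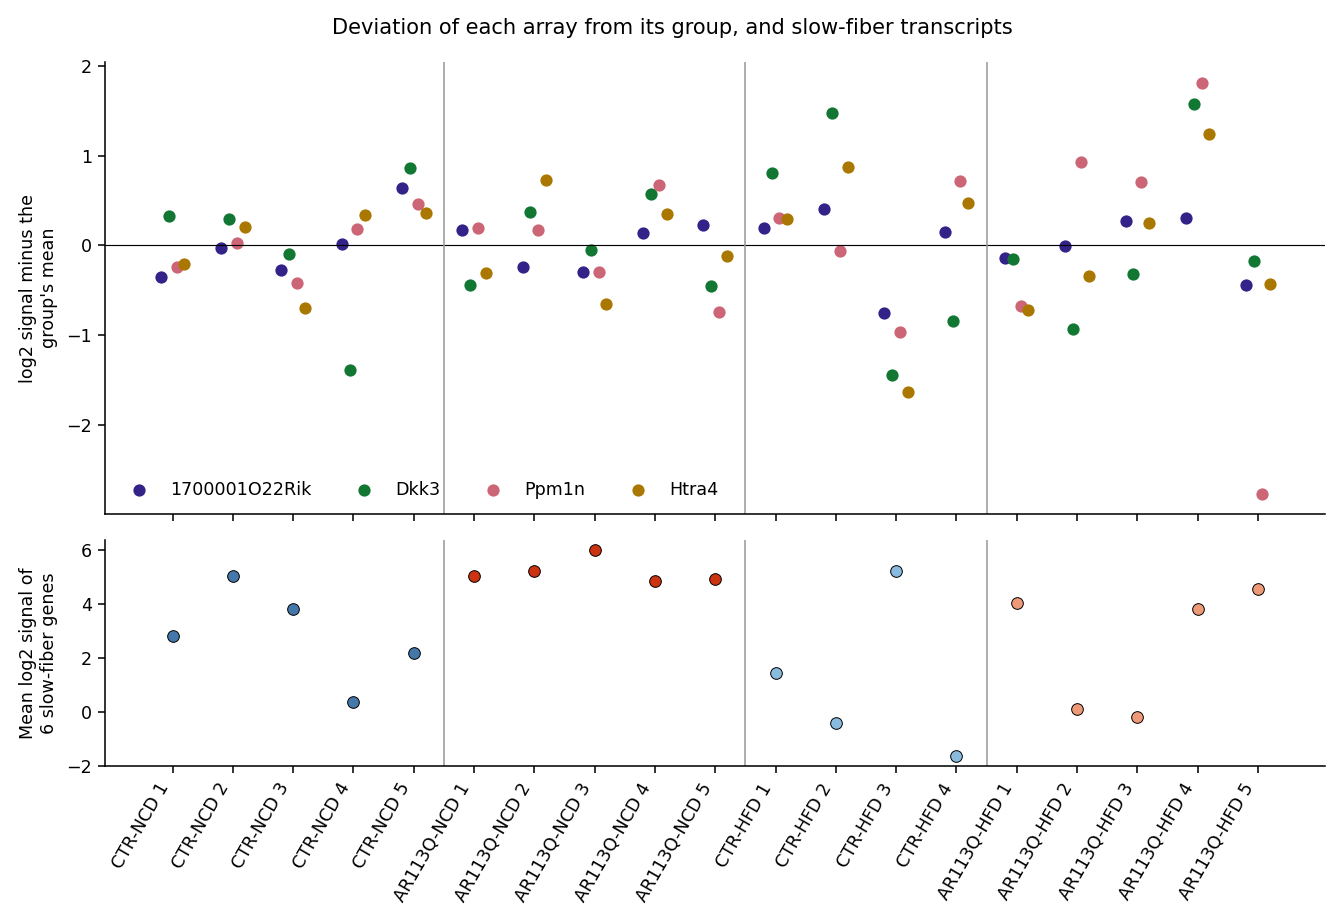
Top, log2 signal of each gene minus the mean of its group (vertical axis) on the 19 arrays (horizontal axis, group and replicate). Bottom, mean log2 signal of 6 slow-fiber genes on the same arrays. All 4 genes lie below their group's mean on CTR-HFD replicate 3, where the slow-fiber mean is 5.22, and above it on AR113Q-HFD replicate 4, where it is 3.79.

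Across the 19 arrays Pearson's r between pairs of the 4 genes ranged from 0.871 (Dkk3 and Ppm1n) to 0.957 (1700001O22Rik and Htra4). After each group's mean was subtracted it ranged from 0.286 (Dkk3 and Ppm1n) to 0.720 (1700001O22Rik and Htra4), so the pairs kept the same extremes. These are descriptions over arrays that share genotype groups and slides. Because the genes were selected for large falls between genotypes, high r over all 19 arrays was set by that choice. The choice also bears on the probes most like each gene over all arrays. The probes most like each gene over all arrays were Smox (r = 0.989), Gdap1 (0.987) and NAP111447-1 (0.984) for 1700001O22Rik, and Lingo3 (0.965), Tpx2 (0.960) and Tiam1 (0.959) for Dkk3. For Ppm1n the first was Emid1 (0.965), followed by 2 probes with no gene name, and for Htra4 Gdap1 (0.980) and Exosc1 (0.972) with 1 unnamed probe between them. Gdap1, a mitochondrial outer membrane protein gene, recurred for 1700001O22Rik and Htra4 and was itself lower in AR113Q, by -2.98 on the NCD and -2.43 on the HFD. Within groups the most like probes were Gm12359 (r = 0.948), Zfp108 (0.906) and Gdap1 (0.904) for 1700001O22Rik, and AI854703 (0.866), Zfp850 (0.848) and Lingo3 (0.837) for Dkk3. They were Syt3 (0.893), Rxrg (0.867) and 2310015K22Rik (0.852) for Ppm1n, and BC026762 (0.884), E130012A19Rik (0.879) and Gdap1 (0.872) for Htra4. For Ppm1n the largest deviation from a group mean was -2.77, at AR113Q-HFD replicate 5, whose spot was not well above background. It weighs on every within-group r of Ppm1n. Gdap1 was among the 3 most like probes of 1700001O22Rik and Htra4 by both measures, and Lingo3 of Dkk3.

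The families of the 3 named proteins were examined gene by gene, with the 4 genes left out. Over all probes the median difference was -0.05 on the NCD and -0.07 on the HFD. Of 7 other Dickkopf family members and receptors tested, 0 were called on either diet, with medians of -0.18 and -0.05. On the HFD the ligand Dkk2 differed by -0.17, the co-receptors Lrp5 and Lrp6 (brighter probe) by -0.04 and -0.05, and Kremen1 (brighter probe) by 0.18. Of 3 other HtrA proteases, Htra1, Htra2 and Htra3, 0 were called, with medians of -0.19 and -0.18. On the HFD these 3 lay at -0.18, 0.08 (brighter probe) and -0.32, beside -3.02 for Htra4.

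Of 18 other PPM phosphatases, 2 were called higher and 1 lower on the NCD, and 1 lower on the HFD, with medians of 0.00 and -0.05. Over all probes, 2.3% were called higher and 2.03% lower on the NCD, and 2.9% higher and 1.85% lower on the HFD. A gene was counted as called if any of its probes was, so gene counts and shares of probes are not a like measure. Pdp1, which dephosphorylates and so activates pyruvate dehydrogenase, was lower on both diets, by -0.81 on the NCD (SE 0.14, limma adjusted p = 0.000634) and -0.96 on the HFD (SE 0.15, limma adjusted p = 0.000261) for 1 of its 3 probes, and all 3 probes were called on the HFD. Ppm1k, the phosphatase of branched-chain ketoacid dehydrogenase, was higher on the NCD by 0.80 on its dimmer probe (limma adjusted p = 0.000259), while its brighter probe gave -0.22. Pdp2, the second pyruvate dehydrogenase phosphatase, was called on the NCD at 0.74 (limma adjusted p = 0.0433), and its other probe gave 0.03. The probes of Ppm1k and Pdp2 therefore disagreed. Pdp2 was not called with scaling to the array median, and with normexp correction only Pdp1 on the HFD was.

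Of 55 Wnt pathway genes tested, 3 were called lower on the NCD and 4 on the HFD, and 0 higher, with medians of -0.07 and -0.09. Over all probes, 2.03% were called lower on the NCD and 1.85% on the HFD, and 2.3% and 2.9% higher. Genes were again counted by any called probe, so the shares of probes are not a like measure. The counts are descriptions of single genes, and nothing is drawn from them about the pathway. The ligand Wnt4 was lower on its 2 probes, by -0.93 and -0.80 on the NCD and by -1.02 and -1.09 on the HFD (limma adjusted p = 0.00103 and 0.00275 on the HFD). The receptor Fzd7 was lower by -0.83 on the NCD and -1.06 on the HFD on 1 probe, and by -0.72 and -0.85 on the other, with the second NCD value short of the fold threshold. Nkd2, which binds Dishevelled and dampens Wnt signals, was called on the dimmer of its 2 probes, by -1.38 on the NCD and -1.33 on the HFD (limma adjusted p = 6.81e-06 on the HFD), while its brighter probe gave -0.32 and -0.38 and was called on neither diet. The receptor Fzd9 was lower on the HFD by -1.54 (limma adjusted p = 0.00112) and not called on the NCD at -0.32. Its interaction was not called. With normexp correction Wnt4, Fzd7 and Fzd9 were still called on the HFD but Nkd2 was not, and none of them was called on the NCD, where Fzd4 was called higher. With scaling to the array median or by quantiles, 2 and 3 genes were also called higher on the NCD, Fzd4 in both.

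**Figure D4:**
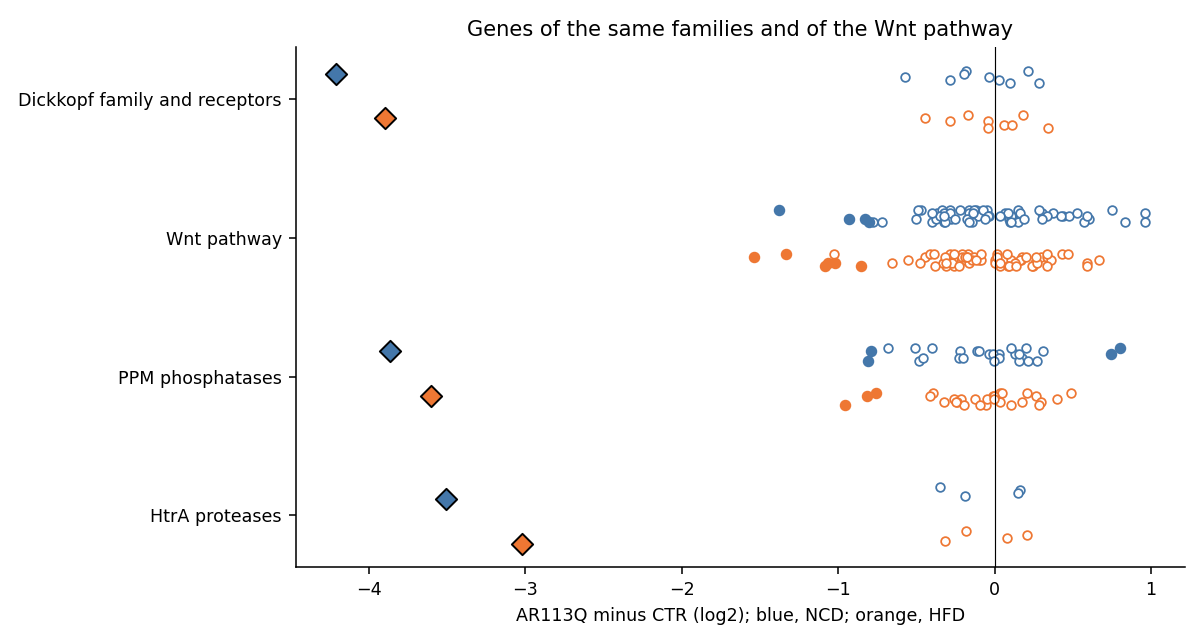
Genotype difference (AR113Q minus CTR, log2) of every tested probe of the Dickkopf family and its receptors, the Wnt pathway, the PPM phosphatases and the HtrA proteases, on the NCD (blue) and the HFD (orange). Filled circles were called and diamonds mark Dkk3, Ppm1n and Htra4, which lie at -3.02 or below, while the lowest other value is -1.54, for Fzd9 on the HFD.

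Genes next to the 4 on the chromosome were read within 100 kb of each probe. For 1700001O22Rik, 6 neighboring genes were tested and 0 were called on either diet, with the nearest, LOC101055740 and Ntmt1, at -0.55 and -0.21 on the HFD. For Dkk3 the only tested neighbor was Usp47, a deubiquitinase gene, at -0.22 on the NCD and 0.04 on the HFD. For Htra4, 4 genes were tested and 0 were called. Its nearest neighbor Tm2d2, 2633 bases away, differed by -0.54 on the NCD and -0.51 on the HFD, which passed the adjusted p (0.000190 by limma on the HFD) but not the fold threshold. For Ppm1n, 9 genes were tested on 12 probes, of which 3 were called on the NCD and 2 on the HFD, beside the shares of all probes given above. Eml2, a microtubule-associated protein gene, was called higher on both diets, by 0.67 on the NCD on 1 of 2 probes and by 0.74 and 0.73 on the HFD. Vasp, which promotes actin filament elongation, was called lower on the NCD at -1.01 and not on the HFD, where it was at -0.72 with an adjusted p of 0.00733 by limma. On the side of higher coordinates the nearest neighbor was Rtn2, which differed by -0.52 and -0.45 and was not called, and D830036C21Rik farther out was called lower on the NCD at -0.76. No tested neighbor fell by as much as any of the 4 genes.

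**Figure D5:**
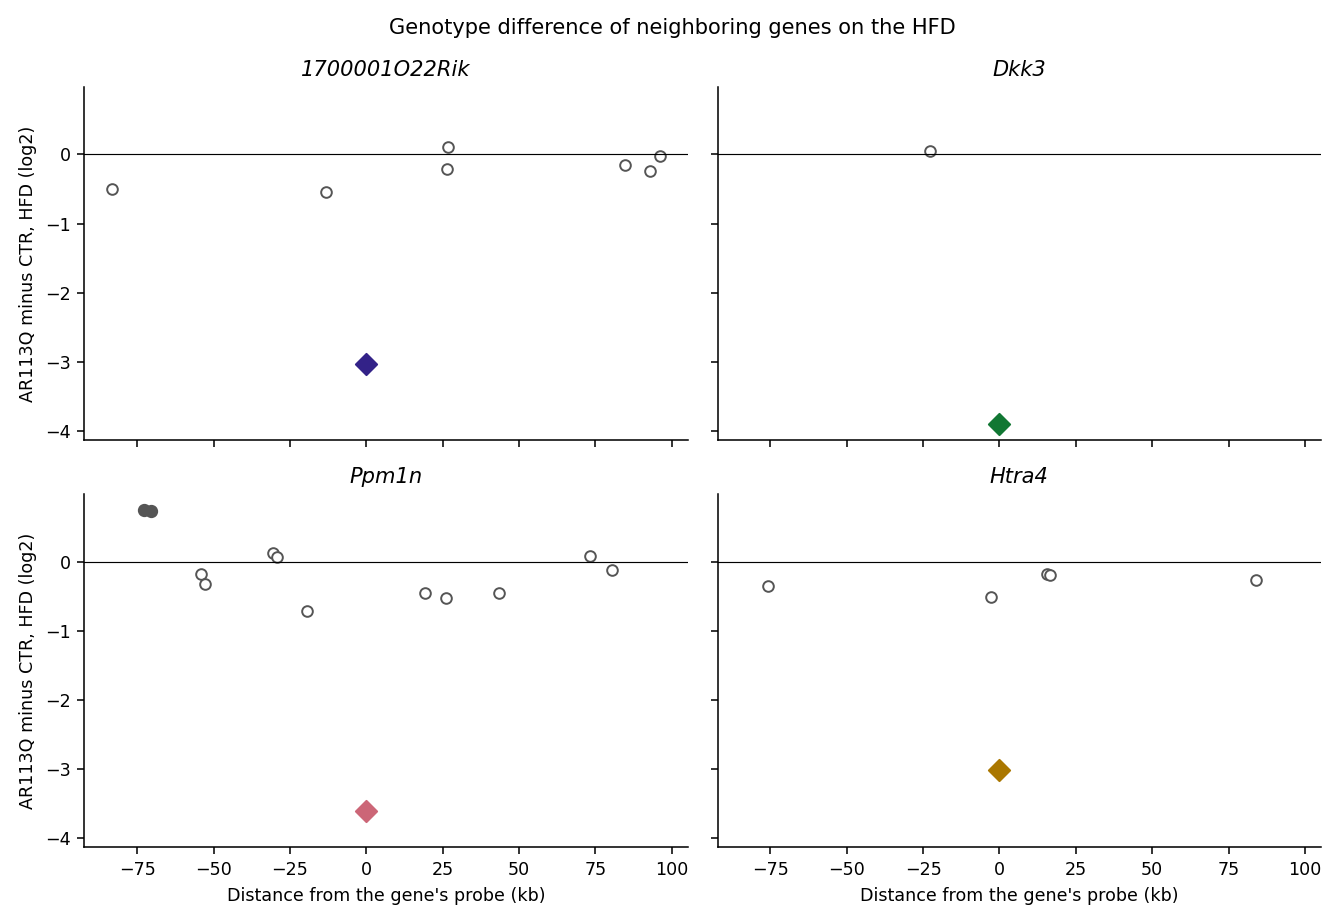
Genotype difference on the HFD (vertical axis, AR113Q minus CTR, log2) of tested probes within 100 kb of each gene's probe, by distance (horizontal axis, kb; positive toward higher coordinates). Diamonds are the 4 genes and filled circles are neighbors that were called; neighbors lie between -0.72 and 0.74, and the genes at -3.02 or below.

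Promoter sequence was at hand for 2 of the 4 genes, 1700001O22Rik and Ppm1n, from RefSeq on GRCm38.p6, and is shown as a description. The 4 genes were selected for their falls between genotypes, so their falling together is not a result. The 250 bases before each annotated start are printed 5′ to 3′ along the minus strand, with 2 start sites for 1700001O22Rik. Capitals mark matches on either strand to AGAACA (the half-site of the glucocorticoid receptor), to CANNTG (the E-box read by myogenic factors) or to CATTCC (MCAT), and to the MEF2 motif.
1700001O22Rik, chr2:30803665-30803914: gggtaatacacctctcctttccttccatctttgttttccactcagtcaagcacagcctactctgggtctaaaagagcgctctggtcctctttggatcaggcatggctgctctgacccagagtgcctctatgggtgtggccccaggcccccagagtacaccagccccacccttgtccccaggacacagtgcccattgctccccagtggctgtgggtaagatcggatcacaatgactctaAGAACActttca
1700001O22Rik, chr2:30801738-30801987: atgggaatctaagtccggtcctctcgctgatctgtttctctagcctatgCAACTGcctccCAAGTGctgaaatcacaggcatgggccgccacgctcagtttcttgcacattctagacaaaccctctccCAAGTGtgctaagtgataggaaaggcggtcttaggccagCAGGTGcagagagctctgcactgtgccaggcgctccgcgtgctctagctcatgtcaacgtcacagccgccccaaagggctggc
Ppm1n, chr7:19280050-19280299: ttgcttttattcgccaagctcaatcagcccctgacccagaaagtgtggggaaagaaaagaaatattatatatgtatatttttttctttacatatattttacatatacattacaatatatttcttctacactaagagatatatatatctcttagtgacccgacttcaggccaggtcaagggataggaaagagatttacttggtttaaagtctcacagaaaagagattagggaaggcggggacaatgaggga
The first 1700001O22Rik window held 1 AGAACA, 12 to 7 bases before the start, and no E-box. The second held 4 E-boxes and no AGAACA. The Ppm1n window held none of the 4 motifs. Among 32851 promoter windows of this length in the table, AGAACA occurred in 16.1%, CANNTG in 66.2%, CATTCC in 12.6% and the MEF2 motif in 2.92%. No 2 matches overlapped in these windows. The 2 promoters of 1700001O22Rik thus shared no match, and a match here describes letters and not binding.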

How the data were processed

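Total RNA from quadriceps was labelled with Cy3 and hybridised, 1 color per array, to Agilent mouse gene expression arrays. Per the labels, the authors used Agilent Feature Extraction 10.7.3.1 to obtain spot intensities, which were deposited as processed signal (background-subtracted intensity, linear scale) with flags per spot. The authors also deposited a shorter table of log2 values, whose column medians lay between 7.59 and 7.65 and which correlated with the same arrays' scanner values at r of 0.979 to 0.982. Its direction is that of signal, and its exact centring stays unknown. The deposited intensity was used here for 39429 probes after control and outlier-flagged spots were left out and spots of a probe averaged. Log2 values were scaled to the 75th percentile of each array, and the 32026 probes flagged well above background in 4 or more of the 19 arrays were tested. There were 0 per-sample columns left unused. One limma fit with a mean per group covered all 19 arrays (limma 3.58.1, R 4.3.3, lmFit and eBayes), with Benjamini-Hochberg adjustment over all probes. A call needed an adjusted p under 0.05 together with a signal at least 1.5 times, or no more than 0.6 times, that of the other group. The interaction was called on its adjusted p alone. Exact permutation tests used scipy 1.17.1. The fit was tested on simulated data.

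The gene altered in the knock-in is not reported here. The 4 genes and all gene lists were chosen with earlier results of these data known. Named genes were the 4 members, those between and next after them by fall on the NCD, the 3 probes most like each by Pearson's r, the called and nearest neighbors within 100 kb, the list genes called on either diet, and up to 4 further list genes in order of signal. The number of arrays limits the precision. The fit had no block, as the study's methods name none. Alternatives were other scalings, normexp background correction with an offset of 50, the authors' table, looser and stricter filters, a slide or a replicate block, weights per array, other variance settings and thresholds, and leaving out each array.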

Additional observations from a re-analysis of the deposited data

How the results depend on the processing

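Of the differences on the HFD, those of 1700001O22Rik, Dkk3 and Htra4 kept their direction and call under all 15 other settings and all 19 fits without 1 array, and Ppm1n under 13 of 14 and 19 of 19. Not all of these could have failed. Leaving out an NCD array leaves the HFD difference unchanged and bears only on its SE and adjusted p. Dropping the fold threshold can only add calls, and the slide and replicate blocks group nearly the same arrays. With normexp background correction Ppm1n was at -1.34 on the HFD and not called, leaving 3 of 4 genes. Where a probe had to be well above background on all 19 arrays Ppm1n was not tested, leaving 3 of 3. On the NCD all calls were kept wherever the gene was tested. Without 1 array the HFD difference ranged from -3.27 to -2.89 for 1700001O22Rik, -4.38 to -3.41 for Dkk3, -4.05 to -2.91 for Ppm1n and -3.57 to -2.73 for Htra4. No diet or interaction difference of the 4 genes was called under any setting. With a replicate block the HFD differences were -3.06, -3.92, -3.35 and -3.01 (1700001O22Rik, Dkk3, Ppm1n, Htra4), and no call of the 4 genes changed. Deviations from group means correlated at a median r of 0.237 between arrays of the same replicate number (27 pairs, -0.206 to 0.538, 19 over 0.1) against -0.0851 for other numbers, and at 0.273 between arrays of the same slide (22 of 27 over 0.1) against -0.0892 for other slides. Arrays of a slide thus deviated together in most pairs. The main fit had no block and took no replicate numbers as pairs, so its SEs and p-values leave this out. The fits with a slide or replicate block take it into account. The CTR diet difference of Ppm1n, 0.00, turned to -0.54 with normexp and to -0.25 with the replicate block. Without 1 array, some small diet and interaction values changed sign: the AR113Q diet difference ranged from -0.18 to 0.96 for Ppm1n and -0.28 to 0.21 for Htra4, the CTR diet difference from -0.24 to 0.32 for Ppm1n and -0.75 to 0.085 for Htra4, and the interaction from -0.17 to 0.81 for Dkk3, -0.19 to 0.96 for Ppm1n and -0.057 to 0.78 for Htra4. Calling other probes of a gene could not be tried, since each has 1 probe. The cause of these shifts was not tested.

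Over all probes, 591 were lower and 930 higher on the HFD. These became 310 and 262 with normexp, 376 and 826 in the authors' table, which holds fewer probes, 947 and 1031 with slide as a fixed block, 460 and 1080 with median scaling, 513 and 1141 with quantile scaling, and 3179 and 2562 with no fold threshold. On the NCD, 651 lower and 736 higher became 254 and 308 with normexp and 2971 and 2654 with no fold threshold. Signal near background limits Ppm1n most.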
